A study of Homo sapiens with 6 samples.

Results

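The 10 genes described here handle iron or set how sensitive a cell is to ferroptosis, a form of death driven by iron and by oxidised membrane lipids. They are the ferritin subunit genes FTH1 and FTL, the transferrin receptor gene TFRC, the iron exporter gene SLC40A1, the ferritin-autophagy receptor gene NCOA4, the iron sensor gene IREB2, and the lipid genes GPX4, ACSL4, LPCAT3 and AIFM2. They were taken by name from the 58243 genes listed in the files, and 9 of them passed the filter on low levels. The rule that takes them uses no measured value, but the 10 genes were chosen with earlier results of these data known. The cells were CAL27, an established epithelial line that came from a tongue squamous carcinoma, kept in high-glucose DMEM with serum. They received 30 mM metformin, a biguanide drug for type 2 diabetes, or the PBS vehicle for 48 h, with 3 mRNA-seq libraries per group. Only this line, this dose and this time were measured. The labels do not say whether each library had its own culture, and the p-values therefore measure only how far these libraries differ, which may be technical.

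As background, iron enters most cells bound to transferrin through the transferrin receptor and is stored inside ferritin, a shell of heavy (FTH1) and light (FTL) chains. NCOA4 carries ferritin to the lysosome, where the iron is released again. When iron is scarce, the iron regulatory proteins, encoded by ACO1 and IREB2, bind stem-loops called iron-responsive elements. Binding in the leader of ferritin mRNA blocks its translation, and binding in the tail of TFRC mRNA protects it from decay. Ferroptosis follows when peroxides of polyunsaturated phospholipids, made from lipids that ACSL4 and LPCAT3 prepare, exceed what the peroxidase GPX4 and the ubiquinone reductase AIFM2 (also called FSP1) can remove. Ferritin genes are also known targets of the antioxidant transcription factor NRF2.

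The stem-loops are shown because iron regulatory proteins are known to bind such elements, and 4 of the 10 genes held a match to their pattern. A script searched GENCODE 29 protein-coding transcripts for an unpaired C, 5 stem bases, the loop CAGTGN and 5 bases that pair with the stem, with G-T pairs allowed. At least 1 match was found in 4 of the 10 genes and in 291 of 19702 protein-coding genes (1.477%). The loop is in capitals, all sites are written 5′ to 3′ on the transcript, and positions are in GRCh38.
FTH1, 5′ UTR, chr11:61967580-61967596, minus strand: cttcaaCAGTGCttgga
FTL, 5′ UTR, chr19:48965341-48965357, plus strand: cttcaaCAGTGTttgga
SLC40A1, 5′ UTR, chr2:189580667-189580683, minus strand: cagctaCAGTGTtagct
TFRC, 3′ UTR, chr3:196050469-196050485, minus strand: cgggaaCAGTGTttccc
TFRC, 3′ UTR, chr3:196050516-196050532, minus strand: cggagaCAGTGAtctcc
TFRC, 3′ UTR, chr3:196050581-196050597, minus strand: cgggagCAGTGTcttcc
TFRC, 3′ UTR, chr3:196050985-196051001, minus strand: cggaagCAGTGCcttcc
FTH1 and FTL each held 1 site in the 5′ UTR, with the same stem. TFRC held 4 matches in the 3′ UTR. The pattern matched in 7 of the 10 genes listed below as known for such elements, so it can miss sites. A match describes the letters and says nothing of binding in these cells. NCOA4, IREB2, GPX4, ACSL4, LPCAT3 and AIFM2 had no match to this pattern.

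With metformin, both ferritin genes rose and the iron uptake receptor, the ferritin-autophagy receptor, the iron sensor and 2 lipid genes fell. FTL was 2.90-fold and FTH1 2.46-fold higher, while GPX4 was 1.75-fold, TFRC 1.66-fold, LPCAT3 1.60-fold, IREB2 1.33-fold and NCOA4 1.28-fold lower. ACSL4 and AIFM2 did not pass the test, and SLC40A1 was listed at 0 or near 0 in every library and was not tested. Thus 2 of 9 tested genes were called higher, where 31.0% of all 13437 tested genes were, and 5 of 9 were called lower, against 25.2% of all. In either direction it was 7 of 9 against 56.2%. The groups were free of overlap in 8 of the 9, against 64.4% of all tested genes. The median log2 change was -0.35 over the 9 genes and 0.06 over all tested genes. Calls are by limma at a Benjamini-Hochberg adjusted p below 0.05 over all tested genes, those with a mean of at least 1 FPKM (mapped fragments scaled to transcript length and library size). Log2 changes are the metformin mean less the PBS mean of log2(FPKM + 1), which understates changes of low genes, and levels are the mean ± SD of n = 3 libraries in FPKM. In RNA from whole cultures, fewer cells that express a gene and less of its RNA per cell cannot be told apart.

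**Figure D1:**
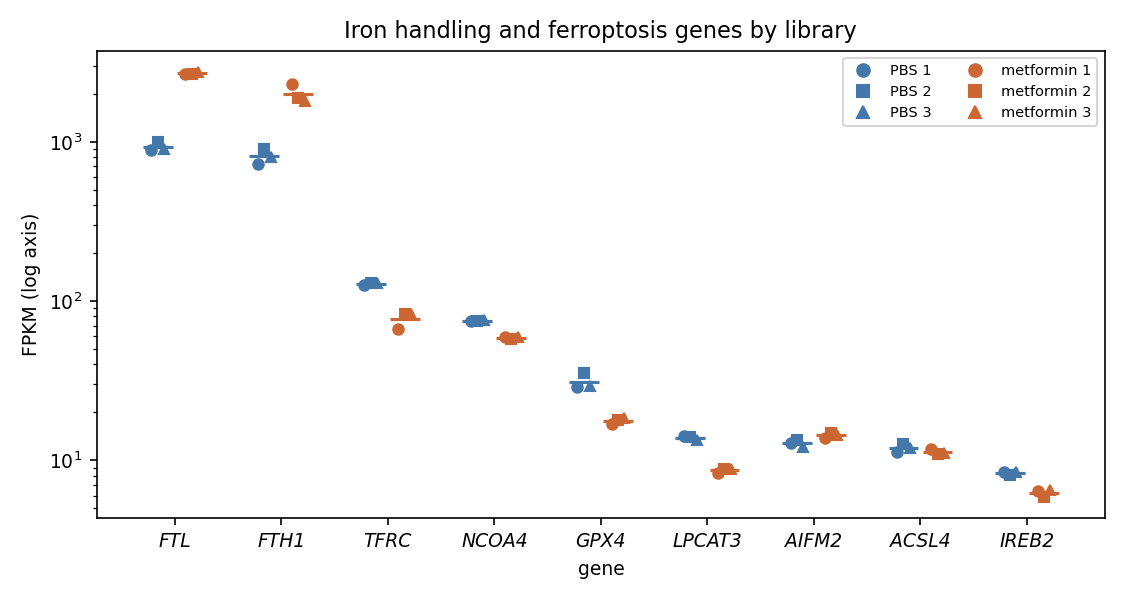
FPKM on a log axis of the 9 genes above the level filter in each library, ordered by their PBS mean, with PBS in blue, metformin in orange, a symbol for each replicate number and a line at the group mean. FTL and FTH1 lie at the top in every library and separate upwards with metformin, and ACSL4 is the only one of the 9 whose groups overlap.

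Facts of the whole data set bear on these genes as follows. From the spacing of low FPKM values, libraries were estimated at 7810000 to 8820000 counted fragments. Markers of squamous epithelium, of which EPCAM and CDH1 also mark other epithelia, were present in every library, with SFN at 299 to 337 FPKM. Of 10 such markers 3 were called higher and 6 lower, against 31.0% and 25.2% of all tested genes. DSG3 rose from 9.01 ± 0.235 to 25.1 ± 0.843 FPKM, EPCAM from 103 ± 4.34 to 130 ± 1.77 and CDH1 from 51.5 ± 3.37 to 61.0 ± 0.798. KRT14 fell from 246 ± 17.4 to 12.9 ± 0.275 FPKM and KRT5 from 355 ± 6.04 to 52.4 ± 4.19. These 10 markers of squamous epithelium summed to 1305 to 1386 FPKM with PBS and 756 to 779 with metformin. Of the markers of immune cells, fibroblasts and endothelium, PTPRC, COL3A1, PECAM1 and KDR were at or below 0.212 FPKM. The 4 that passed the level filter were all called, where 56.2% of all tested genes were. CD14 fell from 3.71 ± 1.09 to 0.942 ± 0.135 FPKM and CDH5 from 6.17 ± 0.516 to 2.03 ± 0.0758. CD14 reached the filter mean of 1 FPKM only through the PBS libraries. CD68 rose from 2.15 ± 0.207 to 3.33 ± 0.319 and COL1A1 from 1.36 ± 0.200 to 2.38 ± 0.221. The sum of 6 immune markers was 5.69 to 6.74 FPKM with PBS and 4.28 to 6.19 with metformin, and that of 5 endothelial markers 5.93 to 6.87 and 2.01 to 2.32. Most of the latter was CDH5. The 6 fibroblast markers summed to 1.43 to 2.07 and 2.31 to 2.63 FPKM. The part of these marker differences in the results was not tested. Both libraries numbered 3 stood apart in haemoglobin: HBB had 84.9 FPKM in the PBS and 109 in the metformin library, against 8.66 to 18.1 in the other 4. The sum of 5 erythroid markers was 174 and 224 FPKM there, against 17.3 to 33.5 elsewhere. Without both libraries numbered 3 all 7 called genes kept their call, as given for FTL, FTH1 and TFRC with their values. The log2 change was then -0.83 for GPX4, -0.66 for LPCAT3, -0.38 for IREB2 and -0.34 for NCOA4, with limma adjusted p-values of 0.00561, 0.00406, 0.0254 and 0.0104.

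FTL (ENSG00000087086.14, chromosome 19, 48965301 to 48966878) encodes the light chain, which favours formation of the iron core. Its level was 891, 992 and 906 FPKM in the PBS libraries and 2661, 2671 and 2747 in the metformin libraries. Every metformin library thus lay far above every PBS library. The mean rose from 929.5 ± 54.4 to 2693 ± 46.9 FPKM, and limma put the log2 change at 1.54 (SE 0.05, adjusted p = 2.41e-06). All 37 genes of mitochondrial DNA are listed at 0 in every library. Among the other genes FTL ranked 6th or 7th by FPKM in the PBS libraries and 1st in each metformin library. Without both libraries numbered 3 its log2 change was 1.50 (adjusted p = 0.000470), within a range of 1.33 to 1.58 over all alternatives.

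FTH1 (ENSG00000167996.15, chromosome 11, 61959718 to 61967660), the heavy chain gene, encodes the subunit that oxidises iron for storage. Its FPKM was 728, 905 and 805 with PBS and 2322, 1881 and 1796 with metformin. The groups were well apart, and metformin replicate 1 was the highest. The mean rose from 813 ± 88.6 to 1999.8 ± 282 FPKM. By limma the log2 change was 1.29 (SE 0.12, adjusted p = 0.000143), and 1.36 without both libraries numbered 3 (adjusted p = 0.00289, the highest over all alternatives, against a lowest of 3.54e-06). Among the same genes as for FTL, FTH1 ranked 9th or 11th with PBS and 2nd with metformin. Of 13437 tested genes, 327 had a higher log2 change than FTL and 484 a higher one than FTH1. Together the 2 genes made up 0.794% to 0.908% of the FPKM sum of a PBS library and 2.24% to 2.46% of that of a metformin library. The genes of mitochondrial DNA count as 0 in these sums.

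FTH1 values carry uncertainty from other loci. The files list 25 FTH1 pseudogenes, copies left by reverse transcription in most cases, and 9 of them were at 0 in every library. Their summed FPKM was 20.2 to 24.8 with PBS and 54.8 to 61.3 with metformin, which is 2.60% to 3.26% of the FTH1 value in any library. All 7 pseudogenes whose mean reached 1 FPKM were called higher, where 31.0% of all tested genes were. Such copies can take fragments of FTH1, so the 7 calls are not independent. FTH1P2 went from 9.56 ± 0.446 to 24.3 ± 3.25 FPKM and FTH1P8 from 3.04 ± 0.0381 to 8.29 ± 0.646, whereas the calls of FTH1P10, FTH1P11, FTH1P20 and FTH1P23 were each lost under at least 1 alternative. FTH1P10 had 0.190 FPKM in PBS replicate 1 and 5.80 and 5.36 in the other PBS libraries. It shares 592 exon bases with a lincRNA gene on the opposite strand, whose mean was 3.02 FPKM with PBS and 10.6 with metformin. The 16 listed FTL pseudogenes summed to at most 1.53 FPKM in any library. With pseudogene values added to their parents the log2 changes were 1.30 for FTH1 and 1.53 for FTL.

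On the opposite strand, BEST1, the gene of the bestrophin chloride channel, shares 1267 exon bases with FTH1. BEST1 had 8.12, 5.68 and 6.15 FPKM with PBS and 82.1, 88.4 and 2.85 with metformin. It was high in 2 metformin libraries and below every PBS library in the other. Its difference did not pass the test (log2 change 2.01, SE 1.16, limma adjusted p = 0.182). The BEST1 mean was 0.818% of the FTH1 mean with PBS and 2.89% with metformin. Whether counting used strand is not given in the sources used here, so fragments of the shared bases may have gone to either gene.

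**Figure D2:**
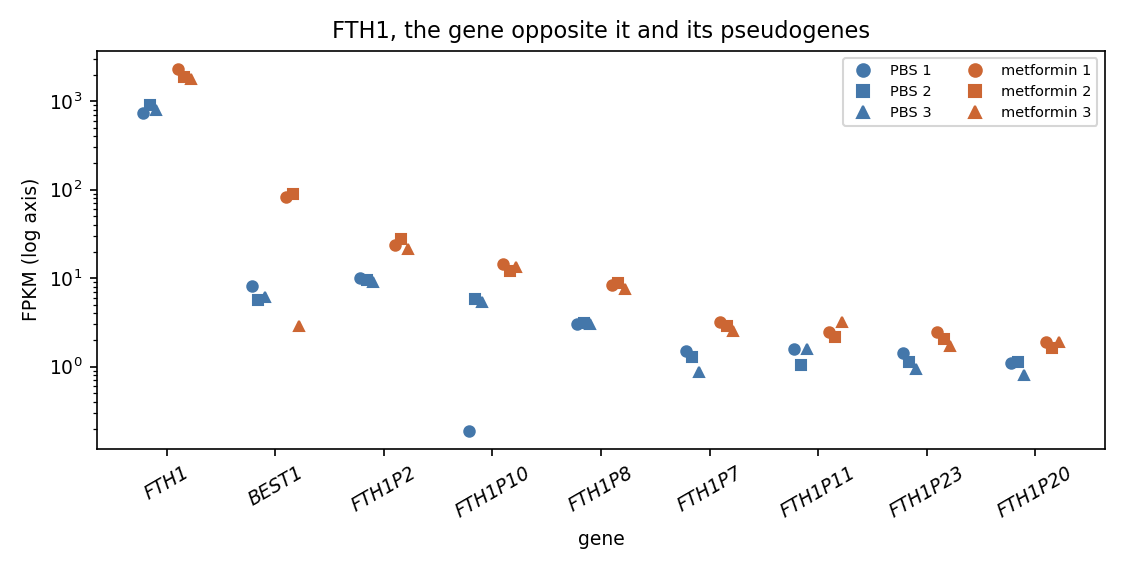
FPKM on a log axis in each library for FTH1, for BEST1 on its opposite strand and for the 7 FTH1 pseudogenes with a mean of at least 1 FPKM (PBS blue, metformin orange, a symbol per replicate number). BEST1 splits the metformin libraries at 82.1, 88.4 and 2.85 FPKM, and FTH1P10 is low at 0.190 in PBS replicate 1.

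TFRC (ENSG00000072274.12, chromosome 3, 196027183 to 196082189) encodes the receptor that brings transferrin-bound iron into the cell. It had 126, 129 and 130.4 FPKM with PBS and 66.5, 83.4 and 82.5 with metformin. The PBS libraries lay within a narrow band, all above the metformin libraries, of which replicate 1 was the lowest. The mean fell from 128 ± 2.35 to 77.5 ± 9.53 FPKM (log2 change -0.73, SE 0.09, limma adjusted p = 0.000581). Without both libraries numbered 3 the change was -0.77 (adjusted p = 0.00743, in a range over all alternatives of 0.000371 to 0.00743).

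SLC40A1 (ENSG00000138449.10, chromosome 2, 189560579 to 189583758) encodes ferroportin, the iron exporter. It was listed at 0 in 5 libraries and at 0.0262 FPKM in PBS replicate 3. A listed 0 in these files is not proof of absence, since all 37 genes of mitochondrial DNA are listed at 0 too. At this level no change could be measured.

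NCOA4 (ENSG00000266412.5, chromosome 10, 46005088 to 46030714) had 74.5, 74.8 and 75.9 FPKM with PBS and 59.6, 57.8 and 59.2 with metformin. The spread within each group was small next to the gap between them. The mean fell 1.28-fold, from 75.1 ± 0.780 to 58.9 ± 0.962 FPKM (log2 change -0.35, SE 0.04, limma adjusted p = 0.000468). In 51.7% of the tested genes the change was larger in size than in NCOA4.

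IREB2 (ENSG00000136381.12, chromosome 15, 78437431 to 78501456) encodes iron regulatory protein 2. Its values were 8.47, 8.12 and 8.44 FPKM with PBS and 6.37, 5.91 and 6.50 with metformin, without overlap. The mean went from 8.34 ± 0.194 to 6.26 ± 0.310 FPKM (log2 change -0.37, SE 0.06, limma adjusted p = 0.00285). ACO1, the gene of the other iron regulatory protein, which also serves as cytosolic aconitase, fell 1.98-fold from 18.6 ± 0.512 to 9.37 ± 0.381 FPKM.

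GPX4 (ENSG00000167468.16, chromosome 19, 1103926 to 1106791) encodes the selenium-containing peroxidase that reduces phospholipid peroxides. It had 28.7, 35.2 and 29.3 FPKM with PBS and 17.0, 17.8 and 18.3 with metformin. PBS replicate 2 was the highest, and the lowest PBS library was above all metformin libraries. The mean fell from 31.0 ± 3.60 to 17.7 ± 0.654 FPKM (log2 change -0.77, SE 0.09, limma adjusted p = 0.000388). In 1127 of all tested genes the log2 change was lower. Without PBS replicate 2 or any other single library its log2 change lay between -0.82 and -0.68.

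AIFM2 (ENSG00000042286.14, chromosome 10, 70098223 to 70132934) makes a GPX4-independent defence by regenerating reduced ubiquinone. Its FPKM was 12.8, 13.3 and 12.1 with PBS and 13.8, 14.8 and 14.5 with metformin. The groups did not overlap, although the highest PBS and lowest metformin libraries were close. The means were 12.8 ± 0.603 and 14.4 ± 0.511 FPKM, and the log2 difference of 0.16 (95% interval 0.02 to 0.31) had a limma adjusted p of 0.0590. With values rescaled to a fixed sum the adjusted p was 0.0349, and without both libraries numbered 3 it was 0.270, the lowest and the highest of the alternatives. The promoter window of AIFM2 (RefSeq, GRCh38.p14, 300 bases around the start) holds the core of an antioxidant response element, searched as TGACNNNGC on both strands. It lies at chr10:70132839-70132847 and reads GCTGAGTCA on the gene's own strand, so that the core is on the opposite one. That core is in 13.347% of the 35116 promoter windows and, among the 9 of the 10 genes with a window in the table, in AIFM2 and NCOA4 (chr10:46019968-46019976). The core TGATGNAA of the element that ATF4 binds, in 3.617% of windows, matched in 0 of these genes. These matches describe letters only.

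ACSL4 (ENSG00000068366.19, chromosome X, 109624244 to 109733403) activates arachidonic and related fatty acids. The libraries had 11.2, 12.6 and 12.0 FPKM with PBS and 11.7, 11.0 and 11.0 with metformin, and the groups overlapped. The means were 11.9 ± 0.668 and 11.3 ± 0.414 FPKM, and the log2 difference was -0.08 with a 95% interval of -0.23 to 0.08 (limma adjusted p = 0.358).

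LPCAT3 (ENSG00000111684.10, chromosome 12, 6976186 to 7018510) inserts such fatty acids into phospholipids. It had 14.2, 14.0 and 13.4 FPKM with PBS and 8.29, 8.82 and 8.87 with metformin, again without overlap. The mean fell from 13.8 ± 0.417 to 8.66 ± 0.322 FPKM (log2 change -0.62, SE 0.06, limma adjusted p = 0.000193). LPCAT3 shares 3100 exon bases with EMG1, a ribosome assembly gene on the opposite strand, at 11.3 ± 0.347 FPKM in the PBS and 9.80 ± 1.30 in the metformin group (limma adjusted p = 0.131), or 81.7% and 113% of the LPCAT3 mean. The part of these shared bases in the LPCAT3 values was not tested.

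**Figure D3:**
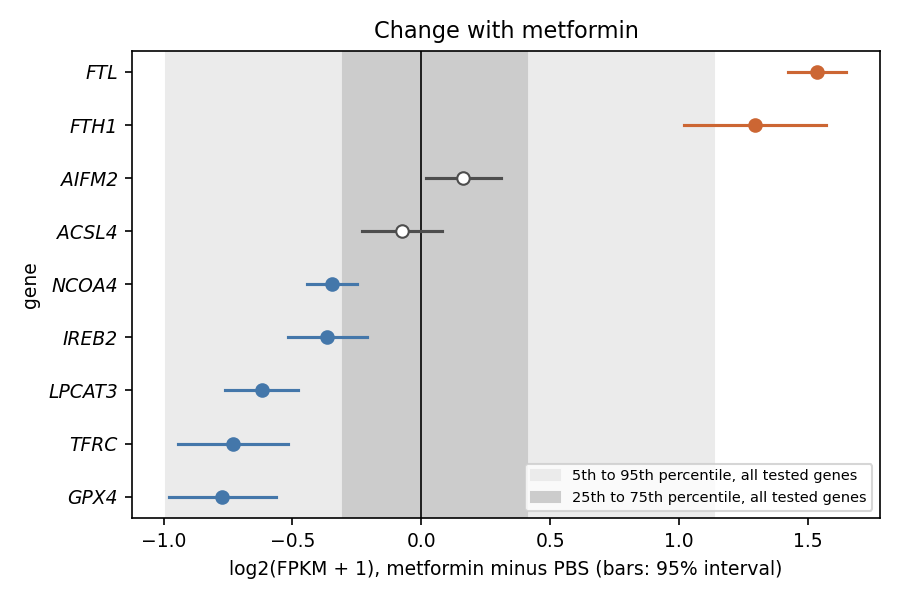
Log2 change of FPKM + 1, metformin less PBS, with its 95% interval for the 9 tested genes (filled: adjusted p below 0.05, orange higher and blue lower, open: not called). The dark band holds the middle 50% of all tested genes and the light band the 5th to 95th percentile (-0.99 to 1.14). FTL at 1.54 and FTH1 at 1.29 lie outside the light band, and the 5 genes called lower lie inside it but below the dark one, NCOA4 and IREB2 just so.

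By level, the order with PBS was FTL, FTH1, TFRC, NCOA4, GPX4, LPCAT3, AIFM2, ACSL4, IREB2 and SLC40A1. Neighbours overlapped there in only 2 places, between FTL and FTH1 and between AIFM2 and ACSL4. With metformin the order was FTL, FTH1, TFRC, NCOA4, GPX4, AIFM2, ACSL4, LPCAT3, IREB2 and SLC40A1, and no neighbours overlapped. LPCAT3 thus went from above AIFM2 and ACSL4 to below both.

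Ratios taken within a library do not depend on how the library was scaled. The ratio of TFRC to FTH1 was 0.173, 0.143 and 0.162 with PBS and 0.0286, 0.0444 and 0.0459 with metformin, 4.09-fold lower by geometric mean. That of ACSL4 to GPX4 was 0.392, 0.357 and 0.410 with PBS and 0.690, 0.618 and 0.604 with metformin, 1.65-fold higher. Neither pair of groups overlapped, and for both the exact two-sided permutation test gave p = 0.1, the smallest that 3 against 3 libraries allow (adjusted p = 0.15 over 3 ratios). The ratio of FTH1 to FTL was 0.817, 0.912 and 0.889 against 0.873, 0.704 and 0.654, with overlap (exact permutation p = 0.2, adjusted p = 0.2). A ratio shows only that 2 genes changed unequally.

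**Figure D4:**
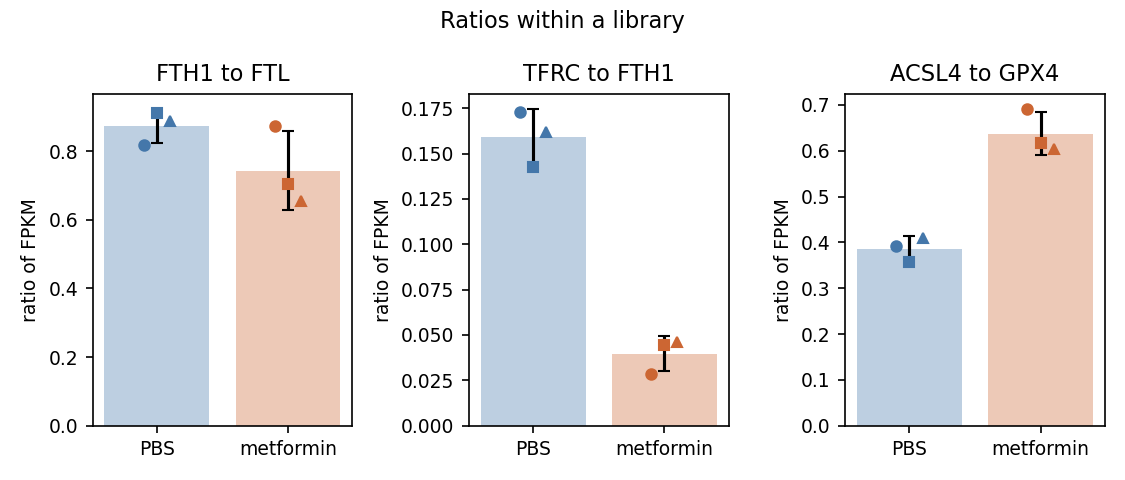
Ratio of FPKM within each library for 3 pairs of genes; bars are means of 3 libraries, whiskers the SD and symbols the libraries (circle, square and triangle for replicates 1, 2 and 3). TFRC to FTH1 is lower and ACSL4 to GPX4 higher in every metformin library, and FTH1 to FTL overlaps.

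Other genes of the same pathways were read from lists drawn up from textbook knowledge, with earlier results of these data known. As background, 31.0% of all tested genes were called higher and 25.2% lower. Genes said to have risen or fallen passed the limma test at an adjusted p below 0.05. Of 14 iron uptake genes 10 were tested, and 2 were higher and 2 lower. LCN2, which encodes the siderophore-binding protein lipocalin 2, rose 5.49-fold from 73.1 ± 9.14 to 402 ± 48.9 FPKM. STEAP1, of the metalloreductase family, rose 2.48-fold from 14.7 ± 0.618 to 36.4 ± 0.250 FPKM. HFE, which encodes a partner of the transferrin receptor, fell 2.23-fold from 2.10 ± 0.345 to 0.938 ± 0.183 FPKM. It reached the filter mean of 1 FPKM only through the PBS libraries. SLC11A2, the gene of the endosomal iron transporter DMT1, named after its values were seen, had 8.72 ± 0.139 and 7.77 ± 0.419 FPKM and was not called (limma adjusted p = 0.0845).

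Of 19 genes for storage, export and sensing 13 were tested, with 3 higher and 7 lower, the genes above included. HMOX1, heme oxygenase 1, which frees iron from heme, rose 4.21-fold from 2.44 ± 0.0829 to 10.3 ± 0.793 FPKM. BLVRA, biliverdin reductase A, which acts after it, fell 1.92-fold from 23.4 ± 2.04 to 12.2 ± 0.640 FPKM, and FLVCR1, which encodes a heme exporter, fell 1.57-fold from 4.51 ± 0.225 FPKM. The iron chaperone genes PCBP1 and PCBP2, named after their values were seen, were the other 2 called lower. HMOX2, heme oxygenase 2, had 18.2 ± 0.683 and 20.1 ± 1.33 FPKM, and BLVRB, biliverdin reductase B, 32.3 ± 1.76 and 36.0 ± 3.18. Neither was called (limma adjusted p = 0.124 and 0.140), and both were named after their values were seen. All 10 genes of heme synthesis were tested, with 0 higher and 6 lower and a median log2 change of -0.54. ALAD, the enzyme of its second step, fell 3.15-fold from 7.28 ± 0.549 to 2.31 ± 0.239 FPKM. FECH, ferrochelatase, which inserts the iron, fell 2.02-fold, ABCB10, a mitochondrial transporter, 1.93-fold and UROS 1.81-fold. Of the 4 not called, named after their values were seen, ALAS1, UROD and PPOX had slightly higher means with metformin and ABCB6 a lower one. ALAS1, the most abundant of the list, had 15.1 ± 0.888 and 16.4 ± 0.170 FPKM (limma adjusted p = 0.135).

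All 26 genes of mitochondrial iron and iron-sulfur clusters were tested, with 7 higher and 9 lower (median -0.05). HSPA9, the mitochondrial chaperone of cluster transfer, rose 1.74-fold from 123 ± 2.45 to 214 ± 2.02 FPKM, and SLC25A37, mitoferrin 1, rose 1.54-fold from 10.5 ± 0.683 FPKM. HSPA9 shares 70 and 20 exon bases with 2 snoRNA genes on its own strand. FDXR, ferredoxin reductase, fell 2.66-fold from 10.4 ± 1.17 to 3.89 ± 0.266 FPKM. CISD3, a mitochondrial iron-sulfur protein gene, fell 1.96-fold, a call lost without both libraries numbered 3 (adjusted p = 0.0610, the highest of the alternatives, which began at 0.000729). CISD3 shares 1148 exon bases with PCGF2 on the opposite strand, whose mean was 3.57 FPKM with PBS and 6.19 with metformin.

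Genes of defence against ferroptosis gave 8 higher and 8 lower of 22 tested (median 0.09). SLC7A11, the cystine importer that feeds glutathione synthesis, rose 3.91-fold from 5.00 ± 0.401 to 19.5 ± 1.34 FPKM. TXNRD1, thioredoxin reductase 1, rose 2.74-fold from 48.7 ± 11.5 to 133 ± 35.5 FPKM. The genes from GCLC to SLC3A2 below were named after their values were seen. GCLC and GCLM, which encode the subunits of the rate-limiting enzyme of glutathione synthesis, rose 2.31-fold and 1.67-fold, and GSS of that synthesis 1.14-fold. NFE2L2, which encodes NRF2, rose 2.61-fold from 7.39 ± 0.621 to 19.3 ± 0.654 FPKM. GSR, the glutathione reductase gene, fell 1.58-fold from 57.1 ± 3.25 to 36.1 ± 2.94 FPKM, and DHODH fell 2.22-fold. SLC3A2, which encodes the partner of SLC7A11, had 72.5 ± 3.71 and 80.2 ± 4.03 FPKM and was not called (limma adjusted p = 0.0766). The ubiquinone synthesis gene PDSS1 fell 3.93-fold from 5.87 ± 0.580 to 1.50 ± 0.125 FPKM. COQ2 of the same pathway, also chosen after its values were seen, fell 2.65-fold, whereas PDSS2, the other listed gene of that pathway, had 5.78 ± 1.07 and 6.53 ± 0.492 FPKM and was not called (limma adjusted p = 0.320). PDSS1 shares 206 exon bases with ABI1 on the opposite strand, whose mean was 7.66 FPKM with PBS and 6.32 with metformin. SCD, whose monounsaturated products resist peroxidation, fell 2.67-fold from 195 ± 7.91 FPKM. SLC7A11 shares 865 exon bases with its antisense gene, whose mean was 0.372 FPKM with PBS and 1.97 with metformin.

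Of 8 genes that make selenoproteins such as GPX4, 6 were tested, with 1 higher and 2 lower. SEPHS2, which makes the selenium donor, rose 2.80-fold from 25.7 ± 2.09 to 71.9 ± 3.40 FPKM. LRP8, a receptor for selenoprotein P, fell 1.59-fold and EEFSEC, the selenocysteine elongation factor, 1.37-fold. EEFSEC had 8.08 ± 0.356 FPKM with PBS and 5.88 ± 0.316 with metformin. It shares 370 exon bases with RUVBL1 on the opposite strand, whose mean was 16.8 FPKM with PBS and 14.1 with metformin. Of 27 genes that supply or drive lipid peroxidation 19 were tested, with 5 higher and 7 lower (median 0.04). ACSL3, which activates monounsaturated fatty acids, rose 1.59-fold from 32.9 ± 0.996 to 52.3 ± 1.79 FPKM. ALOXE3, an epidermal lipoxygenase, rose 3.40-fold from 0.640 ± 0.0909 to 2.17 ± 0.418 FPKM. ALOXE3 reached the filter mean of 1 FPKM only through the metformin libraries, so it was tested only because it was high there. VDAC3, a mitochondrial channel gene, fell 1.79-fold and CYB5R1, an oxidoreductase gene, 1.72-fold. ALOX15, a lipoxygenase gene often named in ferroptosis, was at or below 0.213 FPKM in every library.

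Of 4 transcripts that are reported to rise in ferroptotic cells 3 were tested. HMOX1, given above, and CHAC1, which encodes a glutathione-degrading enzyme, were higher, CHAC1 by 2.83-fold from 1.47 ± 0.393 to 4.16 ± 1.55 FPKM (log2 change 1.03, limma adjusted p = 0.00692). PTGS2, cyclooxygenase 2, the tested gene of the list that was not called, had 1.70 ± 0.125 and 1.72 ± 0.180 FPKM (limma adjusted p = 0.941). CHAC1 and HMOX1 also answer to stress pathways other than ferroptosis, and death of the cells was not measured here. Of 10 transcripts known for iron-responsive elements 7 were tested, with 3 higher and 2 lower. Besides FTH1, FTL and TFRC, CDC42BPA, a kinase gene listed as having an element but with no match in the stem-loop search here, rose 2.02-fold from 3.22 ± 0.293 to 6.51 ± 0.279 FPKM. CDC42BPA shares 440 exon bases with an antisense gene, whose mean was 3.22 FPKM with PBS and 6.74 with metformin. The part of these shared bases in the CDC42BPA values was not tested.

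**Figure D5:**
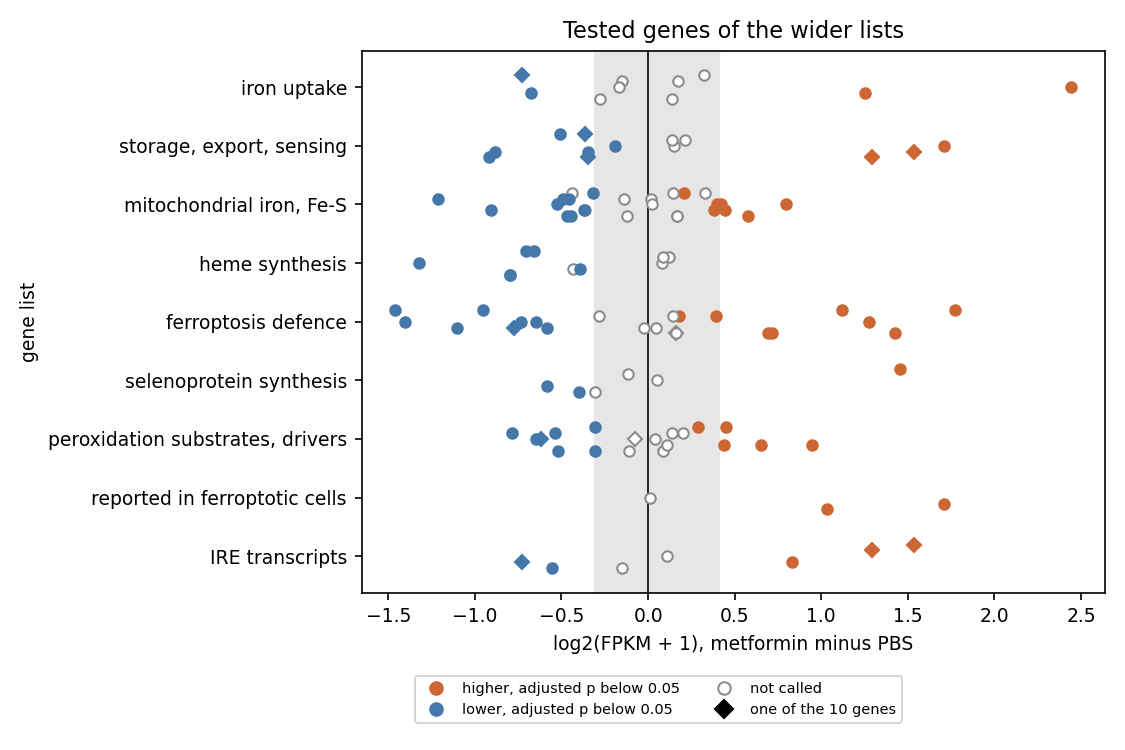
Log2 change of FPKM + 1, metformin less PBS, of each tested gene in 9 lists (orange called higher, blue called lower, open not called, diamonds for the 10 genes described here), with the middle 50% of all tested genes in grey. Heme synthesis has called genes only below 0, the list of transcripts reported in ferroptotic cells only above 0, and the other 7 lists hold calls in both directions.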

How the data were processed

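Each library has a table of FPKM that the authors deposited, with a single column of values, per the file headers. The build was GRCh38, per the submitters' processing notes, while the sources used here do not give the aligner, quantifier, annotation release or strand setting. Reads were 150 bp, per the series design. Of 58243 identifiers, 57980 were named through GENCODE 29 by the identifier without its version. FPKM is relative to all mapped fragments, so abundant transcripts that change move the rest.

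The 13437 genes whose mean reached 1 FPKM were fitted as log2(FPKM + 1) with limma 3.58.1 in R 4.3.3, with an intensity trend and group as the only term, and tested two-sided with Benjamini-Hochberg adjustment at 0.05. The script was tested on simulated data. Ratios used exact permutation tests in SciPy 1.17.1, and exon overlaps BEDTools 2.31.1. Depth was estimated from the commonest product of FPKM and length among single-transcript genes above 500 bases. Intervals cover the spread between libraries only.

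The 10 genes, the lists and the tests were chosen with earlier results of these data known. Named are the 10 genes, up to 4 called genes with the largest change per list (where fewer than 2 passed, the most abundant others), FTH1 or FTL pseudogenes of at least 1 FPKM and genes of that level sharing exons with the 10. Alternatives were other pseudocounts, level filters, scalings, limma priors, a replicate block, protein-coding genes alone, ferritins summed with pseudogenes, and libraries left out. Some genes that the rule names are not reported here.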

Additional observations from a re-analysis of the deposited data

How the results depend on the processing

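All 7 called genes of the 10 kept their call and direction under the 19 alternatives fitted across all genes, and both ferritin genes also when summed with pseudogenes. Leaving out each library in turn gave log2 changes of 1.51 to 1.58 for FTL, 1.18 to 1.37 for FTH1, -0.79 to -0.62 for TFRC and -0.82 to -0.68 for GPX4. AIFM2 was called under 1 alternative, rescaling to a fixed sum, and ACSL4 under 0. Requiring a mean of at least 5 FPKM, which tests fewer genes, gave 4738 called genes in place of 7549, 2 heme synthesis genes in place of 6 and 1 transcript reported in ferroptotic cells in place of 2. The counts of the other lists stayed within 1.5 times under every alternative. Single-gene calls were lost in 18 cases, among CISD3 (1), FTH1P10 (9), FTH1P11 (1), FTH1P20 (1) and FTH1P23 (6).

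With a replicate block 7139 genes were called, and no call of the 10 genes changed. Same-numbered libraries were not treated as pairs: over all tested genes their deviations from the group means correlated at -0.000355, 0.0304 and -0.0105, and PBS replicate 1 correlated best with metformin replicate 3. Haemoglobin transcripts are an exception, being high in both libraries numbered 3. The TFRC to FTH1, ACSL4 to GPX4 and FTH1 to FTL log2 differences were -2.03, 0.72 and -0.24 with the block as without it. The exact sign-flip p was 0.25, 0.25 and 0.5, where 0.25 is the smallest that 3 pairs allow. Without both libraries numbered 3 the FTH1 to FTL difference was -0.14. At an estimated 7810000 to 8820000 fragments per library, SLC40A1 and the other genes near 0 FPKM could not be compared.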

Other observations

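Some genes of the wider lists had 1 library far from the others of its group, chosen here after their values were seen. ELOVL5, a fatty acid elongase gene, had 13.4 FPKM in PBS replicate 1 and 38.0 and 39.4 in the other PBS libraries, against 29.9 to 30.3 with metformin. SLC39A14, a transporter gene for iron and zinc, had 37.6 and 36.0 FPKM in metformin replicates 1 and 2 and 15.3 in replicate 3, against 20.4 to 22.8 with PBS. TXNRD1 had 92.6 FPKM in metformin replicate 1 and 156 and 151 in the other metformin libraries. STEAP2 had 0.817 FPKM in PBS replicate 2 and 4.01 and 3.42 in the other PBS libraries. ELOVL5, SLC39A14 and STEAP2 were not called. The lipoxygenase genes of the epidermis lay low but apart between groups: ALOX12B, below the level filter, had 0.247, 0.294 and 0.553 FPKM with PBS and 0.877, 0.922 and 1.12 with metformin.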
